A study of Mus musculus with 6 samples.

Results

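The genes described here are 40 members of the sterol and fatty acid synthesis programme controlled by the sterol regulatory element-binding proteins (SREBPs), out of 49315 mouse genes counted. They were matched by gene symbol in GENCODE M21 and divided by role into 18 genes of sterol synthesis, 5 sterol regulators, 7 genes of sterol transport and storage, and a fatty acid arm of 10 genes. Read counts per gene came from 2 lines of immortalized mouse keratinocytes, a skin epithelial cell type, with 3 libraries each. The 3A group was MK-546-ha3A (MK-/-:ha3), cells without mouse α3 integrin to which human α3 had been returned, and the Control group was its parent MK-546 (MK-/-), without α3 integrin. Neither line was treated, and both were grown on collagen-coated dishes, per the series' design text at 33 °C with 8% CO2. The comparison asked how transcript levels differ when α3β1, a laminin-binding integrin, is present. Each group was 1 cell line, so the presence of α3 and the history of the line cannot be told apart. The labels do not say that replicates came from separate cultures, so the p-values reflect the spread among these 6 libraries, which could be purely technical. In bulk RNA, fewer cells of a type and less RNA per cell cannot be told apart.

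SREBPs are transcription factors made as membrane proteins of the endoplasmic reticulum. When sterols are scarce, Scap escorts them to the Golgi, where proteases release the active fragment; when sterols are plentiful, Insig proteins hold Scap back. The product of Srebf2 acts mainly on sterol genes and that of Srebf1 mainly on fatty acid genes. In skin, keratinocytes make their own cholesterol and fatty acids, which enter membranes and the lipid barrier of the epidermis.

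The libraries held between 25634204 and 36245240 counts, and 13704 genes passed the low-count filter. Itga3, which checks the labels, had 80.4, 70.2 and 57.5 CPM (read counts divided by a library size scaled with the trimmed mean of M-values) in 3A 1, 2 and 3, against 31.9, 41.7 and 45.1 CPM in Control 1, 2 and 3. It was thus 1.75-fold higher in 3A, where reads of the human transgene may be counted on the mouse gene. The Control line, labelled as lacking α3, also had reads on Itga3, which the transgene cannot supply. Gene-level counts leave unknown which exons those reads cover, so the deletion was not checked. Control 1 stood apart from its line. Its Pearson correlation of log2 CPM across genes was 0.957 and 0.953 with Control 2 and 3, which correlated with each other at 0.988. With 3A 1, 2 and 3 it was 0.946, 0.955 and 0.951, so by correlation Control 1 was about as close to 3A as to its own line. By a chi-square of the counts per degree of freedom, lower for closer libraries, Control 1 was nearer to 3A. This was 262 and 311 with Control 2 and 3, and 163, 99.5 and 119 with 3A 1, 2 and 3. The 3A 1 library correlated at 0.985 and 0.982 with 3A 2 and 3, which correlated with each other at 0.994. Genes are not independent replicates. The mitochondrial mRNA share was 1.58%, 1.23% and 1.30% in 3A 1, 2 and 3, and 1.16%, 4.16% and 4.69% in Control 1, 2 and 3, so Control 1 was on the 3A side of this measure. Counts of called genes are therefore also given without Control 1. Values adjusted for mitochondrial mRNA, given below for some genes, compare the lines largely through Control 1. All 7 keratinocyte markers had at least 1 CPM in every library, with a summed level of 6607 to 8482 CPM in 3A and 9385 to 10767 CPM in Control. Trp63 and Perp were lower in 3A at an edgeR adjusted p under 0.05 (0.0491 and 0.0247), as were 7.39% of tested genes. Krt5, Krt14, Col17a1, Itga6 and Itgb4 did not pass (log2 fold change -0.52, -0.32, -0.77, 0.20 and 0.28). Summed levels reached 3.40 CPM for fibroblast, 3.91 CPM for melanocyte, 22.9 CPM for immune (mainly Cd68) and 0.946 CPM for endothelial markers. Markers of lipid-storing skin cells were close to 0: the 5 sebocyte markers summed to 0.933 to 1.00 CPM in 3A and 1.05 to 1.49 CPM in Control, with Mc5r at 0 counts in all 6 libraries, and the 6 adipocyte markers to at most 0.115 CPM in 3A and 0.684 CPM in Control, with Plin1 and Lep at 0 counts.

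Promoter sequences are shown for 6 members because the genes were examined as targets of 1 transcription factor family. RefSeq windows of 300 bases (GRCm38.p6, 250 before to 50 after the transcript start) were matched for 31 of the 40 members. 4 motifs were searched on both strands: the sterol regulatory element core TCACNCCA, the CCAAT box bound by NF-Y, the GC box GGGCGG and the E-box CACGTG. The CCAAT box was in the windows of 14 of 15 sterol synthesis genes (93.3%), in 3 of 7 genes of the fatty acid arm (42.9%) and in 43.2% of the 9901 tested genes with a window. The sterol element core was in 2 of the 15 (13.3%), in 0 of the 7, and in 4.47% of tested genes. The GC box was in 93.3%, 42.9% and 68.7%, and the E-box in 20% (3 of 15), 0% and 11.6%. Of the sterol regulators and the transport and storage genes, 80% (4 of 5) and 75% (3 of 4) had a CCAAT box, and 100% of each a GC box. Some genes had several windows and counted if any of them matched. Dhcr7 had a CCAAT box only in the last of its windows. NF-Y is known to act beside SREBPs at sterol gene promoters. Acat2 was the 1 sterol synthesis gene with a window and no CCAAT box. A match here is only a match of letters in the window. Only these exact letters were searched, so a window without the core may still hold a variant form of the element.

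Below, capitals mark the sterol element core and each CCAAT box (CCAAT, or ATTGG on the other strand), read 5′ to 3′ along the gene. In Hmgcs1 (chr13:119690101-119690400, plus strand) the core TCACCCCA begins at -137 from the transcript start, among 4 CCAAT boxes. In Msmo1 (chr8:64733529-64733828, minus strand) it begins at -177, with 3 CCAAT boxes. Idi1 (chr13:8885356-8885655, plus strand) has 2 CCAAT boxes and no core, and Cyp51 (chr5:4104648-4104947, minus strand) has 1 and no core. Srebf2 (chr15:82147019-82147318, plus strand), the gene of the sterol-directed factor, has the core at -162 and 1 CCAAT box. Fasn (chr11:120824498-120824797, minus strand), of the fatty acid arm, has 3 CCAAT boxes, of which 2 overlap on opposite strands.
Hmgcs1: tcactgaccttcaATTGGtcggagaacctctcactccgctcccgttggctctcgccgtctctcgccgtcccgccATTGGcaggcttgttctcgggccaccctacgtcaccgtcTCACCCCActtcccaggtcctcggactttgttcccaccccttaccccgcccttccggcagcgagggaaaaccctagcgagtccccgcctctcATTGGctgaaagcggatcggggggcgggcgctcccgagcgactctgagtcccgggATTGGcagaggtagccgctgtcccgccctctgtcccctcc
Msmo1: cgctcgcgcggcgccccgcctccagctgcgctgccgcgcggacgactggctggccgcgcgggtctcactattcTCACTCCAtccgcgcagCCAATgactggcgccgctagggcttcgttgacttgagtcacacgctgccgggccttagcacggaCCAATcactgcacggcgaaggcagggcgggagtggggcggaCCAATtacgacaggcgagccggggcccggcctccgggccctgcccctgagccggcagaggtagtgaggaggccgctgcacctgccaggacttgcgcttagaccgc
Idi1: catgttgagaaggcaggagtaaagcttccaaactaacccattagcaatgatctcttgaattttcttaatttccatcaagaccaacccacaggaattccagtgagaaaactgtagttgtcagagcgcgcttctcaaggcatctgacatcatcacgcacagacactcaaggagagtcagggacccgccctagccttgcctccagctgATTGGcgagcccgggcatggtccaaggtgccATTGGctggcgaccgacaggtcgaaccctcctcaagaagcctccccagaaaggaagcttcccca
Cyp51: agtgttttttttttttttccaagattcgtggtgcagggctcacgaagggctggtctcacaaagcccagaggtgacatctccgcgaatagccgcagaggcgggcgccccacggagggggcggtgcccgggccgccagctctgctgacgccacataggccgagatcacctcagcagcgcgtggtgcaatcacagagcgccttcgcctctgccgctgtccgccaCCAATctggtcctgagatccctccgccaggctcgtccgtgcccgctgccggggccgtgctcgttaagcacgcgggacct
Srebf2: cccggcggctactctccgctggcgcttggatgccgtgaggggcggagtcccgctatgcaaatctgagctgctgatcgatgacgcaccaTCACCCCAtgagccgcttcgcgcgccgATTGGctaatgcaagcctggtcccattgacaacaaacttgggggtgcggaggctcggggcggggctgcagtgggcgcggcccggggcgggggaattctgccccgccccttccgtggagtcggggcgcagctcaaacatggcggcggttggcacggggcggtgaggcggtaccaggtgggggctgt
Fasn: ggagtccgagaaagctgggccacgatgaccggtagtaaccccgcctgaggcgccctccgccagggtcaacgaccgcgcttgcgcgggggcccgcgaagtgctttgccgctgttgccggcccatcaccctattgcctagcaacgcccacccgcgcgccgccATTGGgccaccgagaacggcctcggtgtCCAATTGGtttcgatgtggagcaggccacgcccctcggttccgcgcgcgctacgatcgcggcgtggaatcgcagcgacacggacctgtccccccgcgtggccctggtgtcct

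Transcripts of several sterol synthesis genes were higher in 3A than in Control, from the first reaction to the late demethylation and reduction steps. Of 18 genes tested, 5 rose and 0 fell at an adjusted p under 0.05 (edgeR quasi-likelihood test, Benjamini-Hochberg over all tested genes), and 12 and 0 had an unadjusted p under 0.05. Over all 13704 tested genes, 7.52% were called higher and 7.39% lower, and 15.8% and 18.1% were higher and lower at an unadjusted p under 0.05. Positions of called genes below are those of GENCODE M21 on GRCm38. All 18 fitted log2 fold changes were positive, with a median of 0.53, against a median of -0.016 over all tested genes. The members were chosen with earlier results of these data known, so this contrast was not tested. The 3A libraries lay above the Control libraries without overlap for 12 of the 18, against 18.6% of tested genes. DESeq2 called 9 higher and 0 lower (12.2% and 13.8% of tested genes). Without Control 1, 12 of the 18 were higher and 0 lower, while 26.2% and 25.8% of all tested genes were then called, and the median was 0.63. The test called 3 higher without 3A 1, and 2, which were Acat2 and Tm7sf2, without each of 3A 2, 3A 3, Control 2 and Control 3.

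**Figure D1:**
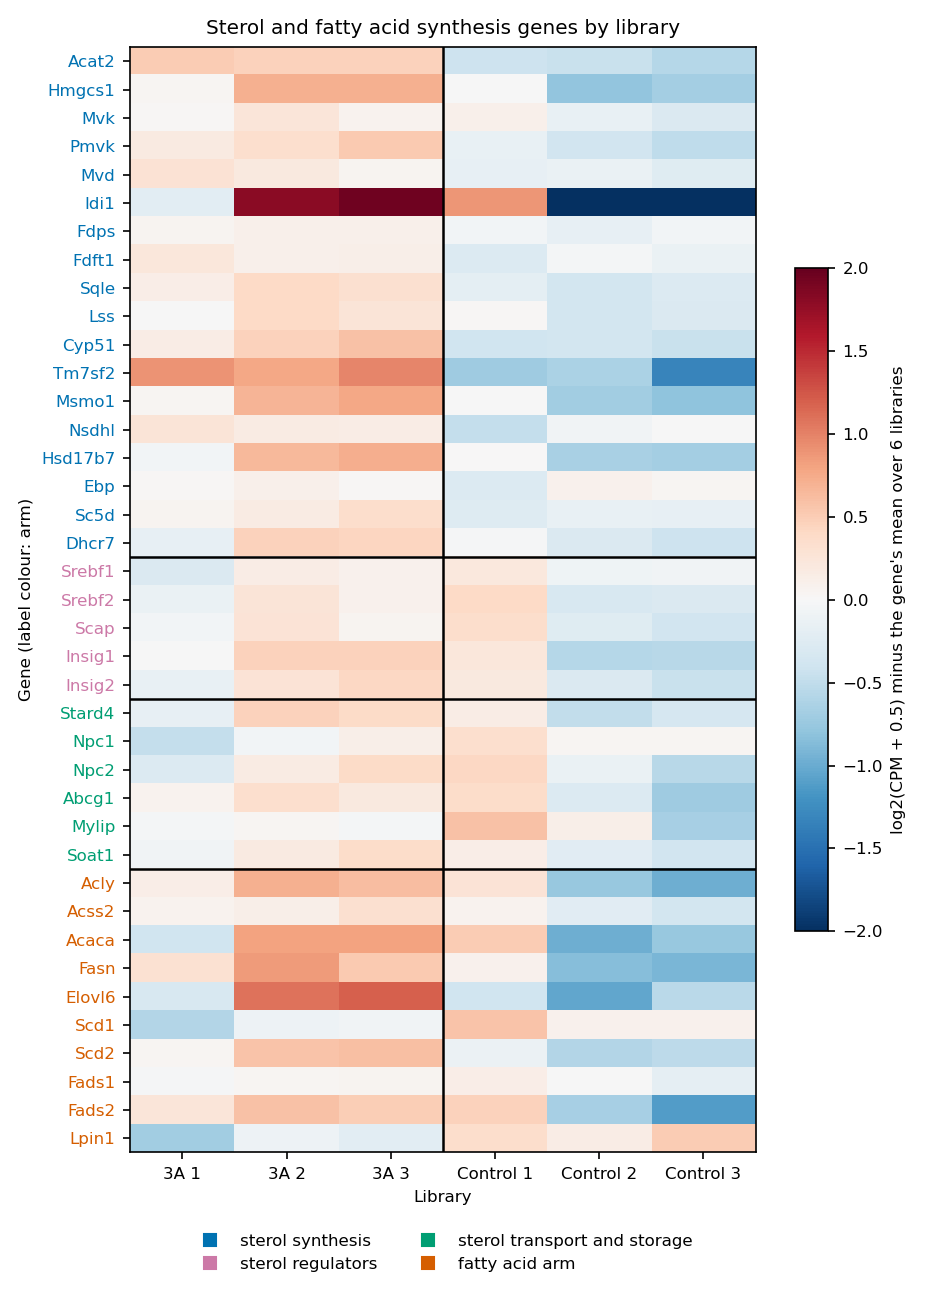
Level of the 39 tested members (rows, label colour by role) in each library (columns), as log2(CPM + 0.5) minus the gene's mean over 6 libraries. Many sterol synthesis genes are high in 3A 2 and 3A 3 and low in Control 2 and Control 3, 9 of the 18 with 3A 1 low and Control 1 high within their line, and Idi1 has the widest range (colours end at 2 and -2).

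Acat2 (chromosome 17, 12942890 to 12960747) encodes the cytosolic thiolase that starts the pathway by joining acetyl-CoA units. It had 178, 171 and 171 CPM in 3A 1, 2 and 3, against 92.8, 90.6 and 83.7 CPM in Control 1, 2 and 3. The groups lay far apart relative to their spread, and Control 1 was like the other Control libraries. Acat2 rose 1.94-fold (log2 fold change 0.96, SE 0.13, edgeR adjusted p = 0.00447), and the test passed whichever library was left out (adjusted p from 0.000961 to 0.0372). Hmgcs1, the synthase that follows, had 228, 363 and 362 CPM in 3A, against 220, 128 and 138 CPM in Control. The groups did not overlap, but the lowest 3A library and the highest Control library, both replicate 1, were nearly equal. Its log2 fold change of 0.97 missed the threshold (95% confidence interval 0.32 to 1.63, edgeR adjusted p = 0.0583) and was 1.27 without Control 1 (adjusted p = 0.00295).

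Among the mevalonate and isoprenoid steps, Pmvk (chromosome 3, 89454541 to 89469013), the phosphomevalonate kinase, had 37.0, 41.1 and 47.3 CPM in 3A, against 29.5, 24.7 and 22.7 CPM in Control. Every 3A library was above every Control library. Pmvk rose 1.63-fold (log2 fold change 0.70, SE 0.17, edgeR adjusted p = 0.0354). It passed without Control 1 (adjusted p = 0.00413) and missed when any other library was left out (adjusted p from 0.0521 to 0.147). Mvk, the kinase before it, and Mvd, the decarboxylase after it, had log2 fold changes of 0.22 and 0.37 that were not called. Fdps, which makes farnesyl diphosphate, and Fdft1, which joins 2 of these to form squalene, differed little between the groups (0.18 and 0.29, not called). For both, every 3A library was nonetheless above every Control library. Fdft1 overlaps Ctsb over 774 bases, Cyp51 overlaps Akap9 over 166 and Srebf1 overlaps Rai1 over 109, each on the opposite strand, and without the strand setting their reads cannot be told apart there.

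Idi1, the isomerase that makes dimethylallyl diphosphate, varied more between libraries than any other tested member. It had 30.9, 126 and 139 CPM in 3A 1, 2 and 3, against 66.2, 7.59 and 6.96 CPM in Control 1, 2 and 3. Control 1 was thus above 3A 1, and within each line 1 library stood far from the other two. Control 1 was 9.10 times the mean of Control 2 and 3, and 3A 1 was 0.233 times the mean of 3A 2 and 3. The log2 fold change of 1.87 had an interval of -0.41 to 4.15 (edgeR adjusted p = 0.212). It was 3.77 without Control 1 (adjusted p = 0.00257) and 0.66 after adjustment for mitochondrial mRNA (adjusted p = 0.474).

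The squalene and lanosterol steps held called and uncalled genes. Sqle (chromosome 15, 59315077 to 59331192), the monooxygenase that commits squalene to sterols, had 148, 178 and 169 CPM in 3A, against 118, 105 and 113 CPM in Control. The groups did not overlap. Sqle rose 1.47-fold (log2 fold change 0.56, SE 0.14, edgeR adjusted p = 0.0415), but it missed without any library other than Control 1 (adjusted p from 0.0556 to 0.201). Lss, the cyclase that forms lanosterol, had a log2 fold change of 0.43 and was not called. Cyp51 (chromosome 5, 4081145 to 4104746), which removes a methyl group from the core of lanosterol, had 268, 331 and 361 CPM in 3A, against 183, 187 and 177 CPM in Control. The Control libraries hardly differed and 3A 1 was the lowest of the 3A libraries. Cyp51 rose 1.75-fold (log2 fold change 0.81, SE 0.16, edgeR adjusted p = 0.0173), passing without 3A 1 or Control 1 and missing without 3A 2, 3A 3, Control 2 or Control 3 (adjusted p from 0.0699 to 0.100).

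Tm7sf2 (chromosome 19, 6062821 to 6068373), a sterol reductase, showed the largest called fold change of the members at a low level. It had 5.01, 4.53 and 5.32 CPM in 3A, against 1.30, 1.40 and 0.679 CPM in Control. The groups were well separated, and the spread within each was small beside the gap. Tm7sf2 rose 4.35-fold (log2 fold change 2.12, SE 0.31, edgeR adjusted p = 0.00580), with an adjusted p from 0.00169 to 0.0388 when each library was left out. It shares 532 bases with Vps51 on the same strand, a gene at a higher level, so some of its reads may be divided between them.

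Msmo1 and Hsd17b7, which act in the removal of the remaining methyl groups, followed the pattern of Hmgcs1. Msmo1 had 226, 353 and 377 CPM in 3A, against 219, 136 and 126 CPM in Control (log2 fold change 0.99, edgeR adjusted p = 0.0583). Hsd17b7 had 88.9, 144 and 153 CPM in 3A, against 92.6, 58.9 and 57.7 CPM in Control (0.88, edgeR adjusted p = 0.0740), and its groups overlapped. In both, replicate 1 of each line lay between the other libraries of the 2 lines, and both were called without Control 1 (log2 fold change 1.29 for Msmo1, edgeR adjusted p = 0.00542 for Hsd17b7). Their partner Nsdhl was not called with 6 libraries (0.36). In the final steps the log2 fold changes were 0.090 for Ebp, 0.39 for Sc5d and 0.51 for Dhcr7, none of them called. Ebp, the sterol isomerase, had an interval of -0.26 to 0.44.

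**Figure D2:**
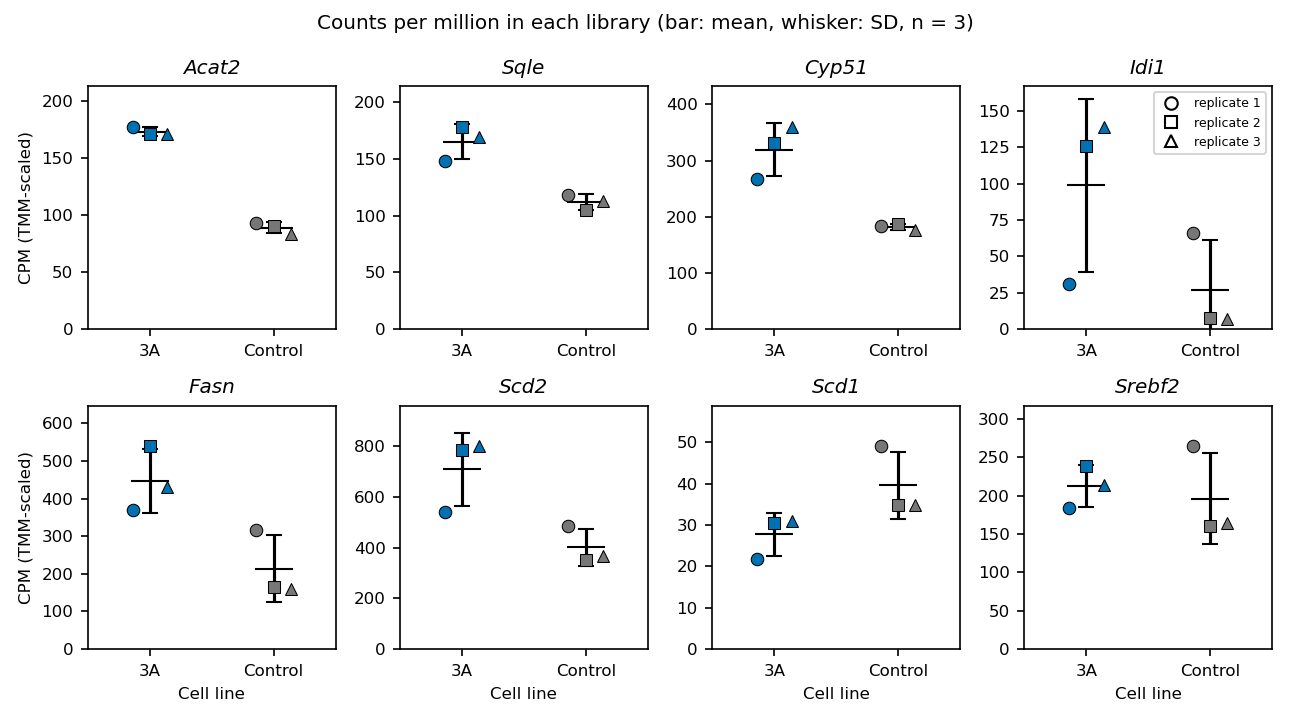
CPM of 8 members in each library (symbols by replicate number, 3A left, Control right), with the mean and SD of 3 libraries; the lower whisker of Idi1 in Control is cut at 0. Acat2, Sqle, Cyp51, Fasn and Scd2 are higher in 3A without overlap, Scd1 is lower without overlap, and Idi1 and Srebf2 overlap.

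None of the regulator genes, which encode the 2 SREBPs, their escort and its retention factors, passed the test. Of 5 tested, 0 rose and 0 fell (edgeR), against 7.52% and 7.39% of tested genes, so in so short a list 0 is near that share. There were also 0 at an unadjusted p under 0.05 (15.8% and 18.1% of tested genes) and 0 by DESeq2 (12.2% and 13.8%). The median log2 fold change was 0.16. Srebf2 had 184, 239 and 214 CPM in 3A, against 264, 161 and 164 CPM in Control. Control 1 was the highest of the 6 libraries, so the groups overlapped. Its log2 fold change was 0.11 (interval -0.43 to 0.66, edgeR adjusted p = 0.745), and -0.28 after adjustment for mitochondrial mRNA. Srebf1 had 48.3, 66.1 and 63.0 CPM in 3A, against 68.8, 55.6 and 56.4 CPM in Control (log2 fold change -0.027, interval -0.45 to 0.39). Per kilobase of exon, the Srebf2 level was 2.27 to 3.01 times that of Srebf1 in the 6 libraries.

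Insig1, the retention factor whose own gene is an SREBP target, had 81.1, 112 and 113 CPM in 3A, against 95.2, 54.9 and 55.4 CPM in Control. Control 1 lay above 3A 1. Its log2 fold change was 0.57 (interval -0.042 to 1.19, edgeR adjusted p = 0.169), and 0.90 without Control 1 (adjusted p = 0.00482). Insig2, its less sterol-responsive relative, had 0.36, and Scap had 0.16. For all 5 regulators Control 1 was the highest Control library and 3A 1 the lowest 3A library, a combination that 33.1% of tested genes showed. Without Control 1, Scap, Insig1 and Insig2 were called higher, as were 26.2% of all tested genes.

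Sterol transport and storage genes were likewise not called. Of 7 members, 6 were tested, with 0 higher and 0 lower (edgeR), against 7.52% and 7.39% of tested genes, again near that share. There were also 0 at an unadjusted p under 0.05 (15.8% and 18.1% of tested genes) and 0 by DESeq2 (12.2% and 13.8%). The median log2 fold change was 0.23. Abca1, the cholesterol exporter induced by oxysterols, had 1 count in 3A 1 and 0 counts in the other 5 libraries. A count of 0 allows up to 3 counts, between 0.0799 and 0.127 CPM in these 5 (counting error only). Its relative Abcg1 had 3.87, 4.72 and 4.26 CPM in 3A, against 4.82, 2.94 and 2.04 CPM in Control (log2 fold change 0.39). Stard4, a cytosolic sterol carrier, had 73.8, 115 and 108 CPM in 3A, against 92.2, 59.3 and 66.0 CPM in Control (0.45, interval -0.11 to 1.01). The lysosomal sterol exporters Npc1 and Npc2 had log2 fold changes of -0.26 and 0.15, Mylip, a ubiquitin ligase that lowers lipoprotein receptor levels, -0.17, and Soat1, which esterifies cholesterol, 0.32. Mylip was near 1 CPM, and its interval ran from -1.23 to 0.89. Without Control 1, Stard4, Abcg1 and Soat1 were called higher, as were 26.2% of all tested genes.

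In the fatty acid arm 1 desaturase gene passed the test, and several others differed as much on average but spread widely between libraries of the same line. Of 10 genes tested, 1 rose and 0 fell (edgeR), against 7.52% and 7.39% of tested genes, so the count is near that of all genes. At an unadjusted p under 0.05, 4 were higher and 2 lower, against 15.8% and 18.1%. The median log2 fold change was 0.74. DESeq2 called 3 higher and 1 lower, against 12.2% and 13.8%. The groups did not overlap for 3 with 3A above and 2 with 3A below, against 18.6% and 17.6% of tested genes. Without Control 1, 6 were higher and 1 lower, against 26.2% and 25.8%, and the median was 1.16. Without 3A 1, 2 were higher, and 0 without each of 3A 2, 3A 3, Control 2 and Control 3 (edgeR).

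Scd2 (chromosome 19, 44293674 to 44306864), a stearoyl-CoA desaturase at 130 CPM per kilobase of exon in 3A and 73.3 in Control, had 542, 785 and 799 CPM in 3A, against 483, 351 and 367 CPM in Control. The groups did not overlap, with replicate 1 of each line nearest to the other line. Scd2 rose 1.77-fold (log2 fold change 0.82, SE 0.22, edgeR adjusted p = 0.0462). It passed without 3A 1 or Control 1 and missed without 3A 2, 3A 3, Control 2 or Control 3 (adjusted p from 0.141 to 0.185). Its neighbour on chromosome 19, Scd1, which carries out the same reaction, had 21.7, 30.4 and 31.1 CPM in 3A, against 49.0, 34.9 and 34.8 CPM in Control. Here all 3A libraries were below all Control libraries, although the log2 fold change of -0.51 was not called (interval -1.02 to -0.0055, edgeR adjusted p = 0.144). After adjustment for mitochondrial mRNA it was -0.81 and passed (adjusted p = 0.0224).

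The ratio of Scd2 to Scd1 differed between the lines and hardly varied within them. Per kilobase of exon, Scd2 was 22.3, 23.1 and 23.0 times Scd1 in 3A 1, 2 and 3, against 8.83, 9.02 and 9.45 times in Control 1, 2 and 3. Control 1 thus gave the same ratio as the other Control libraries, although the CPM of both genes was highest there among the Control libraries. For the other desaturase pair, the ratio of Fads1 to Fads2 per kilobase was 0.937, 0.767 and 0.830 in 3A 1, 2 and 3, against 0.888, 1.78 and 2.16 in Control 1, 2 and 3. There Control 1 lay within the 3A values and apart from Control 2 and 3. A ratio within a library does not depend on library scaling. The ratio of Scd2 to Scd1 was chosen after its values were seen and was not tested, and reads of these similar genes may be divided between them in a way the sources used here do not give.

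**Figure D3:**
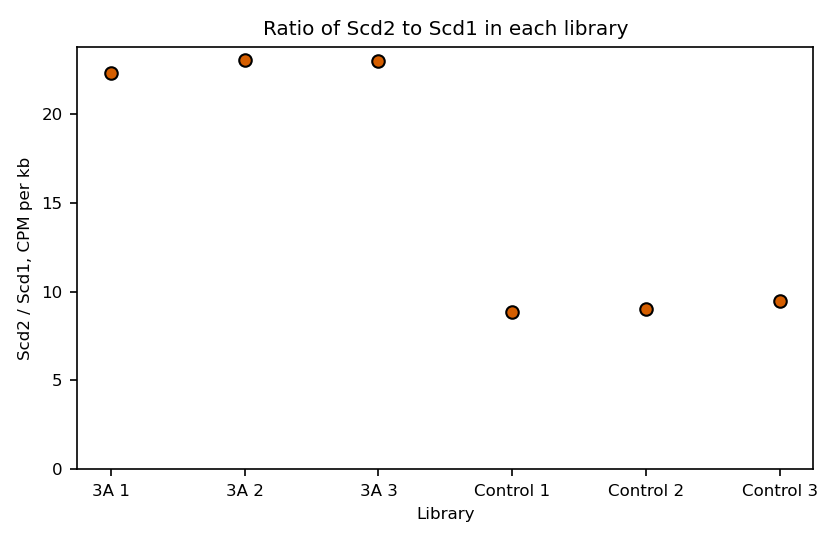
Ratio of Scd2 to Scd1, each in CPM per kilobase of exon, in each of the 6 libraries (1 point per library). The 3 libraries of 3A lie between 22.3 and 23.1 and the 3 of Control between 8.83 and 9.45.

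Fasn, the fatty acid synthase, had 370, 539 and 432 CPM in 3A, against 317, 166 and 159 CPM in Control. The groups did not overlap, and Control 1 was 1.95 times the mean of the other Control libraries. Its log2 fold change of 1.06 (interval 0.35 to 1.78) missed the threshold (edgeR adjusted p = 0.0580), and was 1.47 without Control 1 (adjusted p = 0.000910). Elovl6, which lengthens the product of Fasn, had 23.8, 64.3 and 69.3 CPM in 3A, against 22.6, 14.3 and 20.4 CPM in Control. The 3A 1 library lay just above Control 1 and far below 3A 2 and 3A 3. Its log2 fold change was 1.46 (interval 0.51 to 2.40, edgeR adjusted p = 0.0523).

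The genes that supply and commit acetyl-CoA spread in the same way within each line, but their groups overlapped. Acly, which makes acetyl-CoA from citrate, had 245, 366 and 342 CPM in 3A, against 268, 131 and 113 CPM in Control. Acaca, the carboxylase that makes malonyl-CoA, had 48.9, 114 and 113 CPM in 3A, against 92.5, 32.7 and 38.1 CPM in Control. In both genes Control 1 was above 3A 1, and the groups overlapped. Their log2 fold changes were 0.90 and 0.76 (edgeR adjusted p = 0.120 and 0.292). Both were called without Control 1 (1.39 each). Acss2, which makes acetyl-CoA from acetate, was at 3.48 to 5.88 CPM in the 6 libraries and lies opposite Gss over 22544 bases, so its reads are uncertain (log2 fold change 0.36, not called).

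The desaturases Fads1 and Fads2, which act on polyunsaturated chains, gave unlike values. Fads1 had 198, 206 and 210 CPM in 3A, against 220, 201 and 178 CPM in Control (log2 fold change 0.038, interval -0.30 to 0.37). Fads2 had 145, 184 and 174 CPM in 3A, against 170, 77.5 and 56.4 CPM in Control (0.73, interval -0.19 to 1.64). Control 1 was at the level of the 3A libraries for Fads2. Lpin1, a phosphatidate phosphatase of glycerolipid synthesis, ran the other way, with 7.59, 11.7 and 10.8 CPM in 3A, against 16.3, 14.1 and 18.2 CPM in Control. Its groups did not overlap, and its log2 fold change of -0.69 (interval -1.19 to -0.19) missed the threshold (edgeR adjusted p = 0.0704), passing without Control 1 (-0.67, adjusted p = 0.0323).

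**Figure D4:**
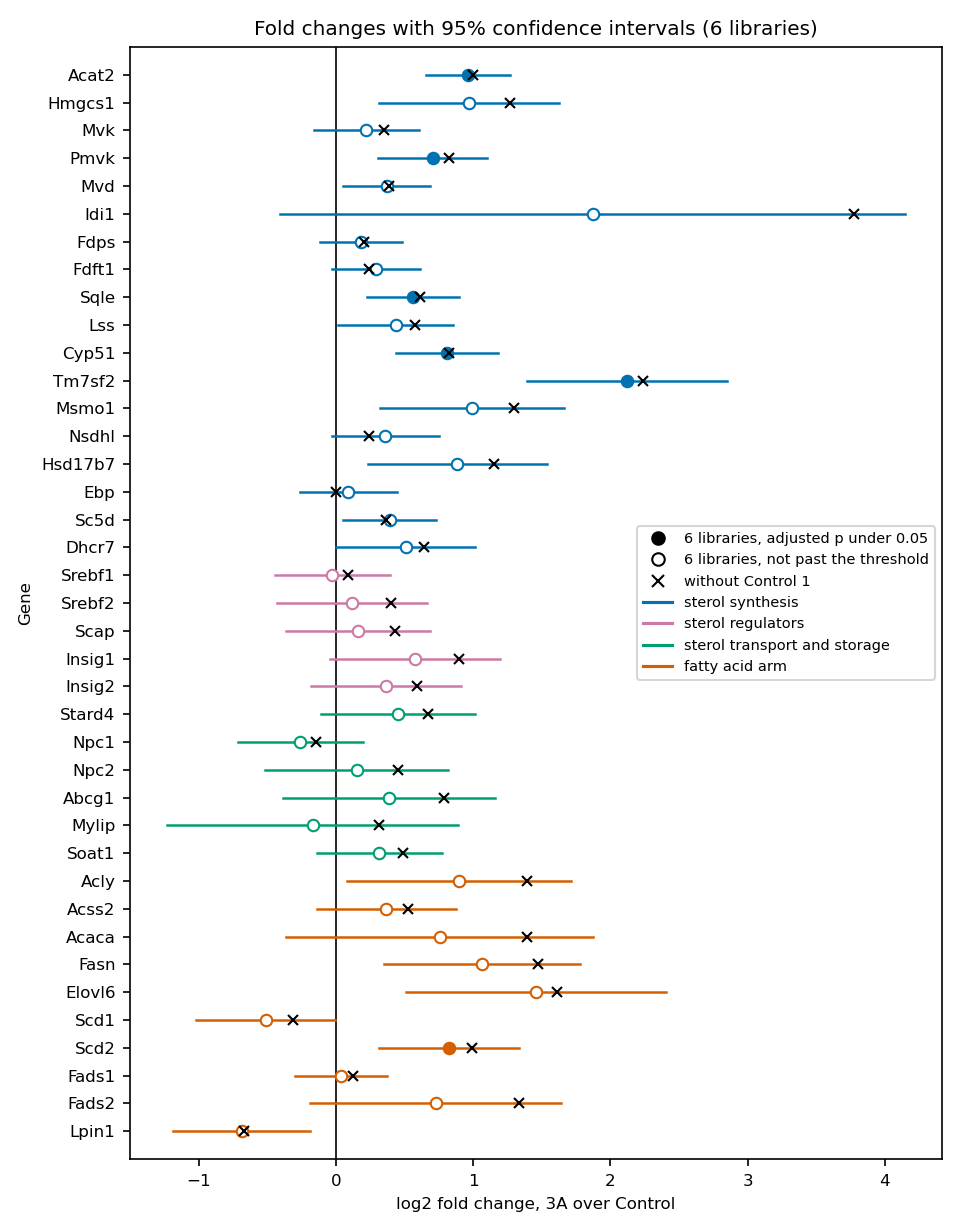
Fitted log2 fold change of 3A over Control for the 39 tested members (circles, filled where the adjusted p was under 0.05) with 95% confidence intervals, coloured by role; crosses give the value without Control 1. All 18 sterol synthesis values are positive with 6 libraries, and the crosses of Idi1, Acaca, Fads2 and Acly lie furthest to the right of their circles.

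Over both arms and the other members together, 6 of 39 tested genes rose and 0 fell (edgeR), which were 5 sterol synthesis genes and Scd2, against 7.52% and 7.39% of tested genes. At an unadjusted p under 0.05, 16 were higher and 2 lower, against 15.8% and 18.1%, and DESeq2 called 12 and 1, against 12.2% and 13.8%. The arms were compared by their values in each library. The mean log2(CPM + 0.5) of the 18 sterol synthesis genes was 6.46, 6.78 and 6.80 in 3A 1, 2 and 3, and 6.19, 5.90 and 5.82 in Control 1, 2 and 3, so the groups did not overlap. For the 10 genes of the fatty acid arm it was 6.05, 6.63 and 6.61 in 3A, and 6.37, 5.69 and 5.70 in Control, where Control 1 lay above 3A 1. In a fit with a term for the mitochondrial mRNA share of each library, the median log2 fold change was 0.48 for sterol synthesis and 0.081 for the fatty acid arm. That share was 4.16% and 4.69% in Control 2 and 3 but 1.16% in Control 1, near the 3A libraries. The adjusted values thus rest largely on Control 1 and cannot separate the share from the line. In that fit Acat2, Cyp51, Tm7sf2 and Nsdhl were called higher and Scd1 lower, while 9.13% and 9.23% of tested genes were called higher and lower. The difference between the arms was not tested. Among all genes tested under each other setting, the shares called higher and lower were 7.04% and 5.92% with scaling by library size alone, 3.95% and 4.22% with no low-count filter, 7.91% and 7.28% with limma-voom, and 1.04% and 1.07% with the replicate number as a block. The same shares were 4.54% and 4.64% without 3A 1, 2.46% and 2.26% without 3A 2, and 2.5% and 2.27% without 3A 3. They were 2.93% and 3.06% without Control 2, and 3.52% and 3.46% without Control 3.

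Spread within a line went the same way in most members. Control 1 was above both other Control libraries in 30 of 39 members, against 46.8% of tested genes, and 3A 1 was below both other 3A libraries in 33, against 42.4%. Both held in 28 members (33.1% of tested genes): 9 of 18 sterol synthesis genes, 9 of 10 fatty acid arm genes, 5 of 5 regulators and 5 of 6 transport and storage genes. The median log2 ratio of Control 1 to the mean of Control 2 and 3 was 0.22 for sterol synthesis, 0.46 for the fatty acid arm and 0.66 for the regulators, and 0.025 over tested genes. Control 1 was at least 2-fold above that mean in 5 members (8.79% of tested genes), which were Idi1, Mylip, Acly, Acaca and Fads2. Within Control, Acat2, Cyp51 and Sqle were among the sterol genes with little such spread, with Control 1 at 1.06, 1.00 and 1.09 times the mean of Control 2 and 3. Within 3A, the 3A 1 library was at 1.04, 0.774 and 0.853 times the mean of 3A 2 and 3 for these genes. The part that culture state or RNA quality of Control 1 has in these values was not tested.

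**Figure D5:**
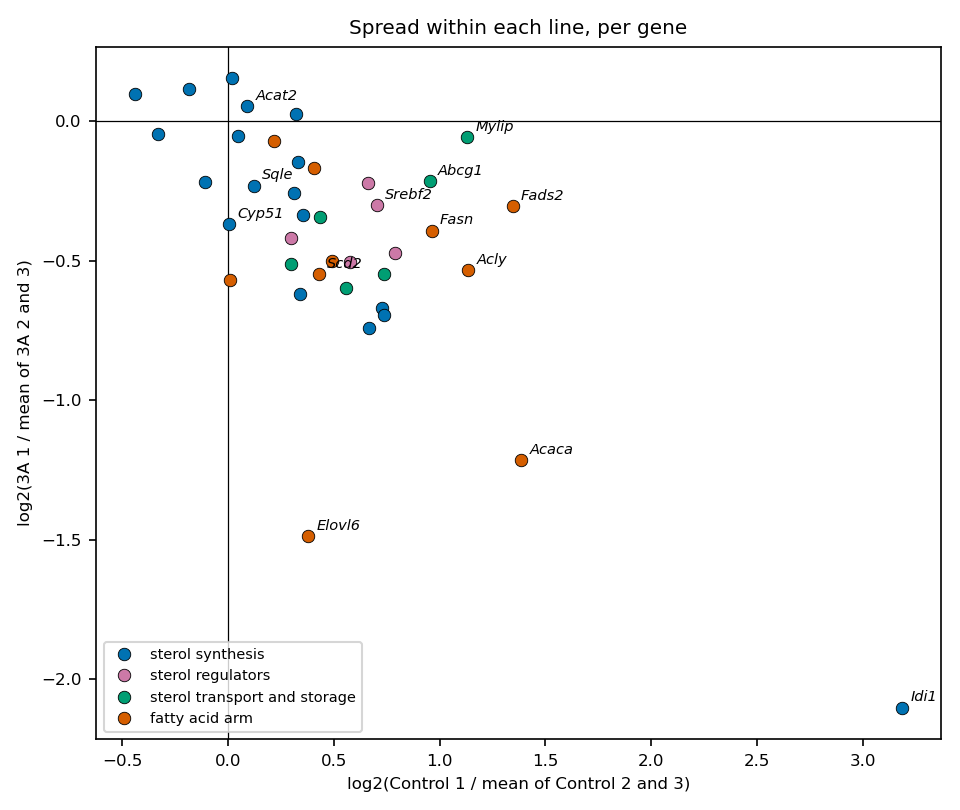
For each of the 39 tested members, the log2 ratio of Control 1 to the mean of Control 2 and 3 (horizontal) and of 3A 1 to the mean of 3A 2 and 3 (vertical), coloured by role. Most points lie in the lower right, with Control 1 high and 3A 1 low, and Idi1 lies furthest out.

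Other genes of the pathway were read from lists of related lipid genes, whose counts stand against 7.52% higher and 7.39% lower over all tested genes. In lists of this size, 1 called gene is near that share. Among 7 genes of SREBP processing and sterol-sensing ubiquitin ligation, 2 rose and 0 fell (edgeR; 0 lower at an unadjusted p under 0.05 and by DESeq2). Erlin2, an endoplasmic reticulum membrane protein that binds SREBP and Scap, had 227, 371 and 404 CPM in 3A, against 85.1, 52.9 and 44.1 CPM in Control. The groups were far apart, with a rise of 2.46 on the log2 scale (SE 0.33, edgeR adjusted p = 0.00420) that passed whichever library was left out. Rnf145, a sterol-responsive ubiquitin ligase, rose by 0.74 and missed without any library other than Control 1 (edgeR adjusted p from 0.0540 to 0.107). Erlin1, the paralogue of Erlin2, had a log2 fold change of -0.46 and was not called (edgeR adjusted p = 0.196). The protease genes Mbtps1 and Mbtps2, which release SREBPs, had log2 fold changes of -0.061 and 0.45 and were not called.

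In the isoprenoid branch, where the count was near the 7.52% of all tested genes, 1 of 11 genes rose and 0 fell (edgeR; 1 lower at an unadjusted p under 0.05 and 1 by DESeq2). This was Fnta, the shared subunit of the protein prenyltransferases, with a log2 fold change of 0.98 that missed without 3A 2, 3A 3 or Control 2 (edgeR adjusted p from 0.0545 to 0.0605). Among 8 tested genes of oxysterol receptor signalling and cholesterol efflux, 0 rose and 1 fell (edgeR; 1 and 1 at an unadjusted p under 0.05, and 1 and 1 by DESeq2). Nr1h2, the widely expressed oxysterol receptor LXRβ, had 49.1, 44.2 and 36.2 CPM in 3A, against 63.7, 70.1 and 72.3 CPM in Control, without overlap. Its log2 fold change was -0.67, and it missed without any library other than Control 1 (edgeR adjusted p from 0.0516 to 0.154). Of 7 genes that supply NADPH and citrate, Me1, the cytosolic malic enzyme, rose by 0.56 and 0 fell (edgeR; 2 lower at an unadjusted p under 0.05 and 2 by DESeq2), and Me1 missed without any library other than Control 1 (edgeR adjusted p from 0.0884 to 0.200).

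Among 8 tested genes of further chain elongation, 3 rose and 0 fell, against 7.52% and 7.39% of tested genes (edgeR; 0 lower at an unadjusted p under 0.05 and by DESeq2). Elovl7, an elongase of long-chain fatty acids, rose by 0.92 and Hsd17b12, the reductase of the elongation cycle, by 0.91 on the log2 scale. Hsd17b12 had 419, 485 and 546 CPM in 3A, against 255, 270 and 246 CPM in Control, and the Control libraries hardly differed. Both missed without 3A 2, 3A 3 or Control 2 (edgeR adjusted p from 0.0508 to 0.0587 for Elovl7 and from 0.0537 to 0.0652 for Hsd17b12). Elovl4, which makes the very long chains of epidermal ceramides, rose by 0.65 and missed without any library other than Control 1 (edgeR adjusted p from 0.0755 to 0.159).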

How the data were processed

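Gene-level read counts, whole numbers for 49315 Ensembl gene IDs in 6 libraries, were deposited without normalization. The submitters' processing notes list mm10, hg38 and GRCh38 as builds and featureCounts, limma, edgeR and Trim Galore as tools, with neither versions nor roles. Which aligner, annotation or strand option was used is not given in the sources used here. Symbols, positions and exon lengths came from GENCODE M21 (GRCm38, the mm10 assembly), which matched 49056 IDs. R 4.3.3 and edgeR 4.0.16 tested 3A over Control by quasi-likelihood (glmQLFit, glmQLFTest; design with group alone) after filterByExpr and TMM scaling, with Benjamini-Hochberg adjustment over 13704 genes and a threshold of 0.05. Standard errors and 95% intervals were derived from the F statistic. Alternatives were 2 other scalings, 2 other low-count filters, DESeq2 1.42.0, limma-voom (limma 3.58.1), the replicate number as a block, a mitochondrial mRNA covariate, and each library left out. No pair of libraries agreed within sampling noise (chi-square per degree of freedom at least 15.7). The fit was tested on simulated counts. The named genes were all members, the called genes and a few uncalled genes of the related lists, cell type markers, genes overlapping members, and Itga3. The members and lists were chosen with earlier results of these data known, and the motifs, printed promoters and within-line ratios after values were seen.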

Additional observations from a re-analysis of the deposited data

How the results depend on the processing

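The count of sterol synthesis genes called higher (5 with 6 libraries) was 3 with scaling by library size alone, 9 with DESeq2 and 0 with the replicate number as a block, and ranged from 2 to 12 when each library was left out. In the fatty acid arm, 1 was called higher with 6 libraries, 0 with library size scaling, the replicate block or a mitochondrial mRNA covariate, 2 with limma-voom, 3 with no low-count filter or DESeq2, and 0 to 6 with each library left out. Of all members, 6 were called higher, 3 with library size scaling, 10 with no filter, 12 with DESeq2, 0 with the block and 2 to 24 with each library left out. None was called lower with 6 libraries by edgeR, 1 by DESeq2 and 1 with the mitochondrial covariate, each of them in the fatty acid arm, and 0 to 1 with each library left out. The median log2 fold change of the fatty acid arm was 0.081 with the mitochondrial covariate, and 0.49 to 1.16 with each library left out. Over all tested genes, 1031 were higher and 1013 lower, 1678 and 1887 by DESeq2, 142 and 146 with the block, and 346 to 3751 and 318 to 3690 with each library left out; the highest of these ranges came without Control 1. Deviations from the mean of each line correlated across genes at -0.66, -0.42 and -0.37 between same-numbered libraries of the 2 lines. In a line of 3 libraries, 1 outlying library shifts the deviations of the others. These values therefore cannot decide whether the numbers pair samples. With the block 0 members passed (lowest edgeR adjusted p = 0.0720, for Tm7sf2), and 10 were higher and 1 lower at an unadjusted p under 0.05.

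Signs changed for 8 members, none of them called with 6 libraries by edgeR, although Scap and Abcg1 were called higher without Control 1. Srebf1 was 0.035 with library size scaling and 0.0013 with no filter. With the mitochondrial covariate Srebf2 was -0.28, Scap -0.22, Npc2 -0.30, Abcg1 -0.14 and Fads1 -0.10. With each library left out, Ebp ranged from -0.0012 to 0.15, Srebf1 from -0.11 to 0.11, Srebf2 from -0.018 to 0.40, Npc2 from -0.053 to 0.45, Mylip from -0.53 to 0.31 and Fads1 from -0.040 to 0.13. The cause was not tested. Depth limits what can be said of Abca1, with 1 count in all 6 libraries.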

Other observations

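Genes that store fatty acids in lipid droplets and build complex lipids, which lie outside the synthesis members, also held called genes. Of 14 tested genes of glycerolipid synthesis and lipid droplets, 3 rose and 0 fell (edgeR), against 7.52% and 7.39% of tested genes. At an unadjusted p under 0.05, 3 were higher and 4 lower, against 15.8% and 18.1%. DESeq2 called 3 higher and 4 lower, against 12.2% and 13.8%. The median log2 fold change was 0.11. Plin2, which encodes a coat protein of lipid droplets, had 815, 675 and 775 CPM in 3A 1, 2 and 3, against 299, 255 and 214 CPM in Control 1, 2 and 3. The groups were far apart, and Control 1 was the highest Control library by a small margin. Plin2 rose 2.95-fold (log2 fold change 1.56, SE 0.18, edgeR adjusted p = 0.00246) and passed under each of the 14 alternatives, left-out libraries included. Gpat3, an acyltransferase that starts glycerolipid synthesis, rose by 1.27 on the log2 scale and passed with each library left out (edgeR adjusted p from 0.000767 to 0.0220). Dgat2, which completes triacylglycerol, rose by 0.93 and missed without 3A 2, 3A 3 or Control 3 (edgeR adjusted p from 0.0570 to 0.0908). Gpam, another acyltransferase of the first step, had 5.01, 16.1 and 17.1 CPM in 3A, against 17.6, 2.46 and 2.46 CPM in Control, a pattern like that of Idi1, and was not called.

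Among 10 tested genes of fatty acid uptake and activation, Acsl3, an acyl-CoA synthetase found on lipid droplets, rose by 0.96 and 0 fell (edgeR; 1 lower at an unadjusted p under 0.05 and 0 by DESeq2). It missed without 3A 2, 3A 3, Control 2 or Control 3 (edgeR adjusted p from 0.102 to 0.122). Of 14 tested genes of fatty acid oxidation, 1 rose and 0 fell (edgeR; 0 lower at an unadjusted p under 0.05 and by DESeq2), with a median of 0.17: Acads, a short-chain dehydrogenase, rose by 0.63 and missed without any library other than Control 1 (edgeR adjusted p from 0.0620 to 0.122). Of 12 tested genes of sphingolipid synthesis, 2 rose and 0 fell (edgeR; 2 lower at an unadjusted p under 0.05 and 2 by DESeq2). Sptlc1, a subunit of the first enzyme, rose by 0.91 and missed without 3A 2, 3A 3, Control 2 or Control 3 (edgeR adjusted p from 0.0850 to 0.119). Ugcg, which makes glucosylceramide, rose by 0.82 and missed without 3A 2, 3A 3 or Control 2 (edgeR adjusted p from 0.0560 to 0.0608). Over all tested genes 7.52% were called higher and 7.39% lower, so 1 called gene in such a list is near that share. The lower shares were 18.1% at an unadjusted p under 0.05 and 13.8% by DESeq2.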
